A study of Mus musculus with 5 samples.

Results

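The unfolded protein response and endoplasmic reticulum (ER) chaperone genes described here are 32 genes listed by symbol and known role, with no threshold on measured values, out of 23185 named genes on the arrays. All 32 were measured, each by 1 probe set. They comprise 11 chaperones and cofactors, 5 protein disulfide isomerases and collagen chaperones, 7 genes of ER-associated degradation, 4 genes of stress sensing (3 sensors and the transcription factor gene Xbp1) and 5 stress-induced genes. RNA came from 5 clones of Ocy454, a mouse osteocytic cell line, with 1 Affymetrix array per clone. Of 37 clones screened for Sost, which encodes the Wnt inhibitor sclerostin, 12H and 15H (labelled high SOST, the high-Sost clones) and 4L, 9L and 24L (labelled low SOST, the low-Sost clones) went onto arrays after 7 days of culture in serum-containing medium. No clone was treated, so no ER stressor was applied, and each clone is a line grown from 1 cell. Each value is a log2 expression level of 1 probe set, made comparable between arrays by RMA (background correction, 1 common distribution and a summary over probes). Sost itself lay between 3.78 and 4.08 in the 5 clones, under the median of 4.18 over all named genes, so these arrays give no check of the labelled Sost levels. The values are not comparable between genes, and the number of arrays limits their precision.

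Secreted and membrane proteins fold in the ER with the help of chaperones, lectins and disulfide isomerases, and misfolded ones are exported to the cytosol for degradation. When unfolded protein accumulates, IRE1 (encoded by Ern1), ATF6 and PERK (encoded by Eif2ak3) are activated. IRE1 splices the Xbp1 message, ATF6 is cleaved to a transcription factor, and PERK phosphorylates the initiation factor eIF2alpha, which lowers translation but favours that of ATF4. Splicing, cleavage and phosphorylation leave no direct trace in the total message level of the sensors. Bone-forming cells secrete large amounts of collagen and other matrix proteins.

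The regulatory elements of this response were looked for in RefSeq promoter windows (build GRCm38.p6, 250 bases before to 50 after each gene's start), which held 28 of the 32 genes. The ER stress response element (ERSE), read by ATF6 with NF-Y, is CCAAT and, after a gap of 9 bases, CCACG. It was matched on both strands in 9 of the 28 genes (32.1%), against 37 of 27025 genes with a window (0.137%). The 9 were Hspa5, Hsp90b1, Dnajc3, Creld2, Calr, Canx, Pdia6, Syvn1 and Derl3. The element was first described in promoters of this kind, so its presence is a description of the genes and no finding of these arrays. Its close variant ERSE-II (ATTGG, a gap of 1 base, CCACG) was matched in Dnajb11 and Herpud1, and in 12 genes in all (0.0444%). CCACG alone, which lies within both elements, was matched in 23 of the 28 genes and in 35.5% of all genes. The C/EBP-ATF composite element (CARE), read by ATF4 (TGATG, a gap of 1 base, AA), was matched in 4 of the 28 genes (Chac1, Asns, Trib3 and Herpud1) and in 4.51% of all genes. The UPRE core TGACGTGG was matched in 0 of the 28 genes and 0.714% of all genes. Matches are given 5′ to 3′ on the gene's strand for 9 genes that recur in the results, with the matched letters in capitals. On the opposite strand ERSE reads CGTGG to ATTGG, and CARE reads TT to CATCA.
Hspa5 ERSE (chr2:34772017-34772051, plus strand, 65 bases before the start): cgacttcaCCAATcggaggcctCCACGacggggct
Hsp90b1 ERSE (chr10:86705525-86705559, minus strand, 107 bases before the start, the nearer of 2 matches, the other lying 212 bases before it): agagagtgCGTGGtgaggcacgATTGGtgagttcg
Dnajc3 ERSE (chr14:118937819-118937853, plus strand, 105 bases before the start): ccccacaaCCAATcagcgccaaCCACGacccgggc
Creld2 ERSE (chr15:88819512-88819546, plus strand, 126 bases before the start): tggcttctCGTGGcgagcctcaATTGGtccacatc
Pdia6 ERSE (chr12:17266483-17266517, plus strand, 98 bases before the start): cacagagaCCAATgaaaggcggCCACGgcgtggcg
Dnajb11 ERSE-II (chr16:22857844-22857870, plus strand, 7 bases after the start): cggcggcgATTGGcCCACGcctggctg
Chac1 CARE (chr2:119351041-119351064, plus strand, 193 bases before the start): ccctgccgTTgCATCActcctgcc
Asns CARE (chr6:7693217-7693240, minus strand, 23 bases before the start): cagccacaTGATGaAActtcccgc
Trib3 CARE (chr2:152344031-152344054, minus strand, 14 bases after the start): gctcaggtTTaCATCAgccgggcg

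The first question was how these genes vary over the 5 clones. Clone 9L, a low-Sost clone, was the highest clone for 19 of the 32 genes, 15H for 8, 4L for 3, 12H for 2 and 24L for 0. Among the 20235 genes with 1 highest clone, 9L was highest for 18.0% and 15H for 15.6%. Clones 4L and 24L were each lowest for 11 of the 32, and 12H for 7. Of the 11 chaperones and cofactors, 9L was highest for 8, 15H for 2 and 12H for 1, while 24L was lowest for 5 and 4L and 12H for 3 each. Averaged as deviations from each gene's 5-clone mean, these 11 stood high in 9L (0.43) and 15H (0.28) and low in 4L (-0.29) and 24L (-0.32). Clone 12H lay between (-0.12). The median range over the clones was 0.58 for the 32 genes, 0.39 over all genes tested and 0.57 over the 11592 genes above the median level, the last close to that of the 32. A span of 1 log2 unit (2-fold) or more was found in 8 of the 32 (25.0%), in 11.7% of all genes and in 19.2% of those above the median level.

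**Figure D1:**
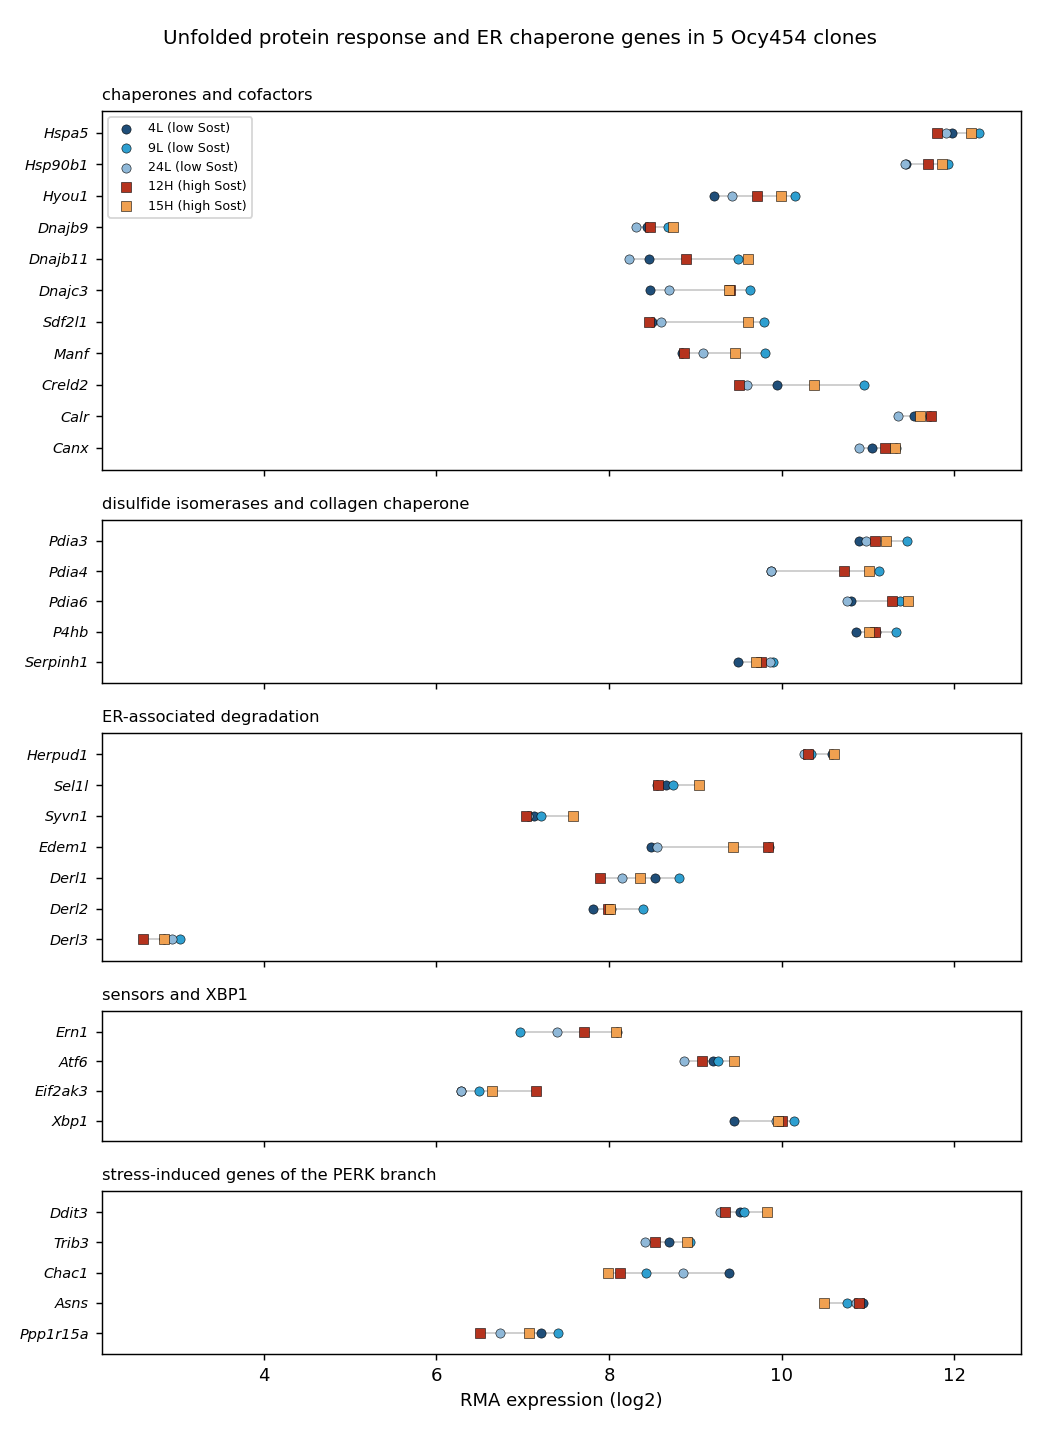
Expression of each of the 32 genes (RMA, log2, horizontal axis) in the 3 low-Sost clones (circles) and 2 high-Sost clones (squares), grouped by role, with a grey line from the lowest to the highest clone; points that coincide hide each other. Clone 9L (mid-blue circles) and clone 15H (orange squares) lie to the right for most chaperones and isomerases, Chac1 runs from 7.99 to 9.39 with 4L highest, and Derl3 alone lies under 4.

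Among the chaperones, Hspa5, which encodes BiP, the HSP70 chaperone of the ER lumen and a repressor of the 3 sensors at rest, read 11.97 in 4L, 12.28 in 9L and 11.90 in 24L, and 11.80 in 12H and 12.19 in 15H. Clone 12H was the lowest clone and 9L the highest, and the groups overlapped (difference of high-Sost minus low-Sost clones -0.06, standard error (SE) 0.19). Hsp90b1, the ER paralog of HSP90 (GRP94), read 11.44, 11.93 and 11.43 in 4L, 9L and 24L and 11.69 and 11.85 in 12H and 15H. Here 4L and 24L were both below the other 3 clones. The whole span of Hspa5 was 0.49 and that of Hsp90b1 0.50, or 1.40-fold and 1.41-fold.

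Smaller-range neighbours were Calr and Canx, the lectin chaperones calreticulin and calnexin that hold newly made glycoproteins. Calr read 11.53, 11.72 and 11.34 in 4L, 9L and 24L and 11.72 and 11.60 in 12H and 15H. Canx read 11.05, 11.33 and 10.90 in the low-Sost clones in that order and 11.20 and 11.31 in 12H and 15H. Both were lowest in 24L, and both spanned under 0.5. Dnajb9 (ERdj4), a J-domain cofactor of BiP, ran from 8.31 in 24L to 8.74 in 15H.

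Wider spans were found among the cofactors. Creld2, an ER-resident protein with disulfide isomerase activity, read 9.95 in 4L, 10.95 in 9L, 9.60 in 24L, 9.51 in 12H and 10.38 in 15H, a 2.72-fold span and the widest of the 32 genes. Dnajb11 (ERdj3), a BiP cofactor that binds unfolded substrates, read 8.46, 9.50 and 8.23 in 4L, 9L and 24L and 8.90 and 9.61 in 12H and 15H. Sdf2l1, a partner of Dnajb11, read 8.50, 9.79 and 8.60 in the low-Sost clones and 8.47 and 9.61 in 12H and 15H. In these 3 genes 9L and 15H were the highest 2 clones, and the gap to the next clone was widest in Sdf2l1, where the other 3 clones lay together.

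Manf, a secreted ER stress-induced factor that binds BiP, had the same leading clones, with 8.85 in 4L, 9.81 in 9L, 9.08 in 24L, 8.87 in 12H and 9.46 in 15H. Hyou1 (GRP170), a nucleotide exchange factor for BiP, read 9.21, 10.16 and 9.43 in 4L, 9L and 24L and 9.71 and 9.99 in 12H and 15H. Dnajc3 (p58IPK), a BiP cofactor and inhibitor of PERK, read 8.47, 9.64 and 8.69 in the low-Sost clones and 9.40 and 9.39 in 12H and 15H. For Dnajc3 and Hyou1, 12H joined 9L and 15H above both 4L and 24L, while for Manf and Sdf2l1 it stayed level with 4L. Clone 9L exceeded both 4L and 24L in 11 of the 11 chaperones and cofactors, with a median excess of 0.94 over 4L and 0.73 over 24L.

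The disulfide isomerases form and rearrange disulfide bonds. Pdia4 (ERp72) read 9.88 in 4L, 11.13 in 9L, 9.88 in 24L, 10.73 in 12H and 11.01 in 15H, and Pdia6 (P5), which also attenuates IRE1 signalling, read 10.81, 11.37 and 10.76 in 4L, 9L and 24L and 11.28 and 11.46 in 12H and 15H. In both genes 4L and 24L lay together at the bottom and the other 3 clones together at the top, so 9L alone kept the Sost groups from separating. Pdia3 (ERp57), the partner of calreticulin and calnexin, ran from 10.90 in 4L to 11.45 in 9L, with 11.08 and 11.21 in 12H and 15H. P4hb, which encodes PDI itself and the beta subunit of collagen prolyl 4-hydroxylase, read 10.86, 11.32 and 11.09 in 4L, 9L and 24L and 11.08 and 11.01 in 12H and 15H.

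Serpinh1 (HSP47), the chaperone dedicated to collagen, read 9.49 in 4L, 9.90 in 9L, 9.86 in 24L, 9.76 in 12H and 9.71 in 15H. Clone 4L was lowest, the other 4 lay within 0.2 of each other, and the group means of 9.73 ± 0.04 (SD, n = 2) and 9.75 ± 0.23 (SD, n = 3) differed by -0.02 (SE 0.15). The collagen I genes, its main clients in bone cells, spanned more, since Col1a1 ran from 10.35 in 4L to 11.64 in 24L and Col1a2 from 9.66 in 4L to 11.19 in 12H. Clone 4L was the lowest clone for all 3 genes.

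In ER-associated degradation, Edem1, a lectin that marks misfolded glycoproteins for export, had the widest span. It read 8.48 in 4L, 9.85 in 9L, 8.55 in 24L, 9.84 in 12H and 9.43 in 15H, with 4L and 24L more than 0.8 below the rest. Herpud1, a membrane scaffold of the export complex, read 10.58, 10.34 and 10.25 in 4L, 9L and 24L and 10.31 and 10.60 in 12H and 15H. Clones 4L and 15H were its leading clones, whereas 8 of the 11 chaperones and cofactors were highest in 9L. The ubiquitin ligase Syvn1 (HRD1) and its partner Sel1l were highest in 15H, at 7.58 and 9.04, while the other 4 clones lay between 7.04 and 7.21 for Syvn1 and between 8.56 and 8.74 for Sel1l.

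The derlins, membrane proteins of the export channel, did not share 1 order. Derl1 read 8.53, 8.81 and 8.15 in 4L, 9L and 24L and 7.89 and 8.35 in 12H and 15H. Derl2 read 7.81, 8.39 and 8.02 in the low-Sost clones and 7.98 and 8.01 in the high-Sost clones. Derl3 read between 2.60 and 3.03 in every clone, under the median of 4.18 over all named genes, while the other 31 genes averaged above it. No order of the clones is read from values at that level. Derl3 does stay in the counts over all 32 genes, as highest in 9L and lowest in 12H, and in the averages and r of the degradation genes.

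Of the sensors, Eif2ak3, which encodes PERK, read 6.28 in 4L, 6.49 in 9L, 6.28 in 24L, 7.15 in 12H and 6.64 in 15H. Both high-Sost clones lay above the 3 low-Sost clones, although 15H lay close to 9L. The high-Sost and low-Sost means were 6.90 ± 0.36 (SD, n = 2) and 6.35 ± 0.12 (SD, n = 3), 1.46-fold apart (difference 0.55, SE 0.19), and limma's test did not pass (adjusted p = 0.737). Ern1, which encodes IRE1, read 8.09, 6.97 and 7.40 in 4L, 9L and 24L and 7.70 and 8.08 in 12H and 15H, so that 9L, the leading clone for most chaperones, was the lowest for this sensor, 2.18-fold under 4L. Atf6 read 9.20, 9.26 and 8.87 in the low-Sost clones and 9.08 and 9.45 in the high-Sost clones. Xbp1, whose message IRE1 splices and whose product drives chaperone and degradation genes, read 9.44, 10.15 and 9.94 in 4L, 9L and 24L and 10.00 and 9.96 in 12H and 15H, with 4L apart at the bottom. The summarised value does not tell spliced from unspliced Xbp1.

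The stress-induced genes are targets of ATF4 or of CHOP. Chac1, a gamma-glutamylcyclotransferase that degrades glutathione, read 9.39 in 4L, 8.43 in 9L, 8.86 in 24L, 8.12 in 12H and 7.99 in 15H. All low-Sost clones lay above both high-Sost clones, although 9L and 12H were only 0.31 apart. The means of 8.06 ± 0.09 (SD, n = 2) and 8.89 ± 0.48 (SD, n = 3) were 1.79-fold apart (difference -0.84, SE 0.33), and limma's test did not pass (adjusted p = 0.737). Asns, asparagine synthetase, read 10.94, 10.76 and 10.86 in 4L, 9L and 24L and 10.90 and 10.49 in 12H and 15H, with 15H alone at the bottom. Both are highest in 4L, which stood low for most chaperones. Both carry a CARE match, as do Trib3, highest in 9L, and Herpud1, highest in 15H. Any link between the match and these levels was not tested.

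Ddit3, which encodes the pro-apoptotic factor CHOP, read 9.51, 9.57 and 9.28 in 4L, 9L and 24L and 9.35 and 9.83 in 12H and 15H. Trib3, a pseudokinase that restrains ATF4, ran from 8.42 in 24L to 8.93 in 9L, with 8.53 and 8.91 in 12H and 15H. Ppp1r15a (GADD34), which directs dephosphorylation of eIF2alpha, read 7.21, 7.41 and 6.73 in the low-Sost clones in the same order and 6.50 and 7.08 in 12H and 15H. In these 3 genes 9L or 15H was highest, as for most chaperones, and 24L or 12H was lowest, whereas Chac1 was highest in 4L and lowest in 15H.

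The upstream sequences of the 2 genes whose Sost groups did not overlap are shown in full for 250 bases before the start, with CARE in capitals in Chac1. The Eif2ak3 window held no ERSE or CARE.
Chac1 (chr2:119350992-119351241, plus strand): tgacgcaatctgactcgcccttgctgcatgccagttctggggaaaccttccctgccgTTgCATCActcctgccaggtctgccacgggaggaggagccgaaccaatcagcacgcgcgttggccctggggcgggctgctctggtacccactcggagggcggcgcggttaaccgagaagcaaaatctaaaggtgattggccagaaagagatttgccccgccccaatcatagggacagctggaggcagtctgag
Eif2ak3 (chr6:70844265-70844514, plus strand): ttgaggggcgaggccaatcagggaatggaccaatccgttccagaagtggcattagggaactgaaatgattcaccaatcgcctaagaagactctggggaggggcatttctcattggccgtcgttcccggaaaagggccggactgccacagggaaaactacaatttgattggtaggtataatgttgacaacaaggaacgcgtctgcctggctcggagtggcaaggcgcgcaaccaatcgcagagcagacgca

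Averaged by role as deviations from each gene's 5-clone mean, the chaperones and cofactors stood at -0.29 in 4L, 0.43 in 9L, -0.32 in 24L, -0.12 in 12H and 0.28 in 15H. The isomerases and Serpinh1 stood at -0.33, 0.31, -0.20, 0.07 and 0.16 in the same order, and the degradation genes at -0.11, 0.22, -0.18, -0.08 and 0.15. These 3 groups shared their 2 highest clones, 9L and 15H. The sensors and Xbp1 stood at -0.07, -0.11, -0.20, 0.16 and 0.21, and the stress-induced genes at 0.24, 0.11, -0.08, -0.23 and -0.05. The 4L mean of the stress-induced genes rests on Chac1: only Chac1 and Asns of the 5 were highest in 4L, and without Chac1 the other 4 averaged 0.09 in 4L and 0.17 in 9L.

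**Figure D2:**
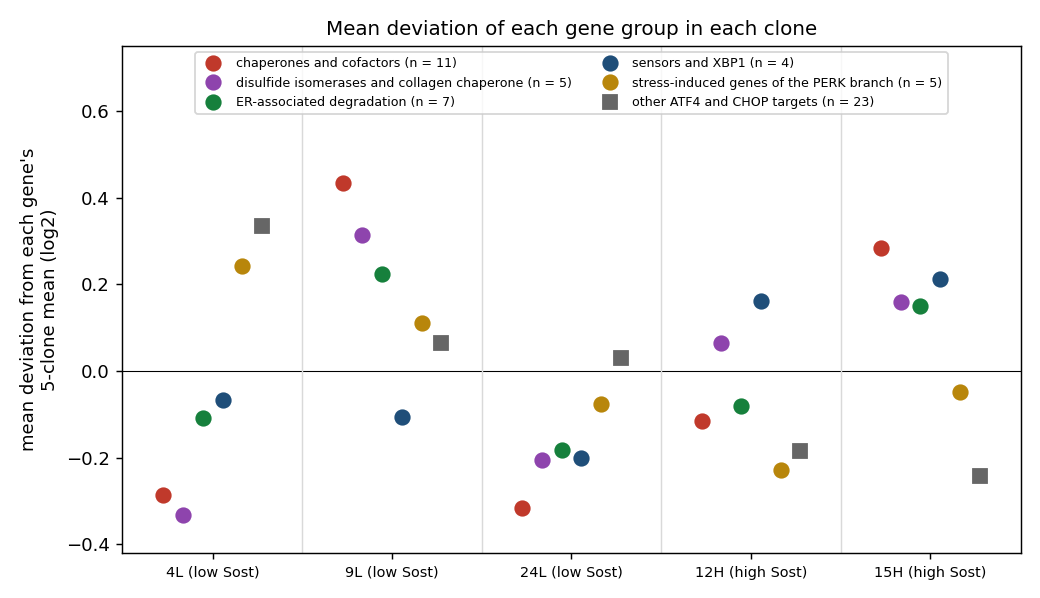
Mean deviation from each gene's 5-clone mean (log2, vertical axis) in each clone for the 5 groups of genes (circles) and for 23 other targets of ATF4 and CHOP (squares); points within a clone are spread sideways only for legibility. Chaperones reach 0.43 in 9L and 0.28 in 15H, and the mean of the 23 other ATF4 and CHOP targets, Atf4 itself included, is highest in 4L.

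The same clones can be compared in pairs within each Sost group, a choice made after the values were seen. Leaving out Derl3 for its low level, 9L exceeded 24L in 28 of 31 genes, with a median of 0.39, the exceptions being Ern1, Chac1 and Asns. Clone 15H exceeded 12H in 22 of the 31, with a median of 0.28. Over the 11592 genes above the median level these shares were 49.0% and 47.8%. Both differences were above 0 in 21 of the 31 genes, against 25.4% of those 11592. The 2 pairs share no clone, but they share the normalization and the pairs' orientation follows the pattern already described. Across all 32 genes, which are not independent replicates, the 2 differences had Pearson's r = 0.39, against 0.027 over all 23185 genes. By role r was 0.73 across the 11 chaperones and cofactors and 0.94 across the isomerases and Serpinh1 (5 genes). It was -0.75 across the 7 degradation genes, -0.33 across the 4 sensor genes and 0.84 across the 5 stress-induced genes. Of the 7 degradation genes 6, Derl3 included, had both differences above 0, so their negative r does not mean opposite directions. The exception was Edem1, higher in 9L than 24L but lower in 15H than 12H. The 8 genes with ERSE other than Derl3 had a median 9L minus 24L difference of 0.46, from 0.15 in Syvn1 to 1.35 in Creld2, and the 19 with a window and no ERSE had a median of 0.28, from -0.43 to 1.30. For 15H minus 12H the order was the reverse, with medians of 0.17 and 0.26. The ranges overlap widely, and Edem1, Sdf2l1 and Pdia4, with differences of 1.30, 1.19 and 1.25, had no ERSE match in their windows.

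**Figure D3:**
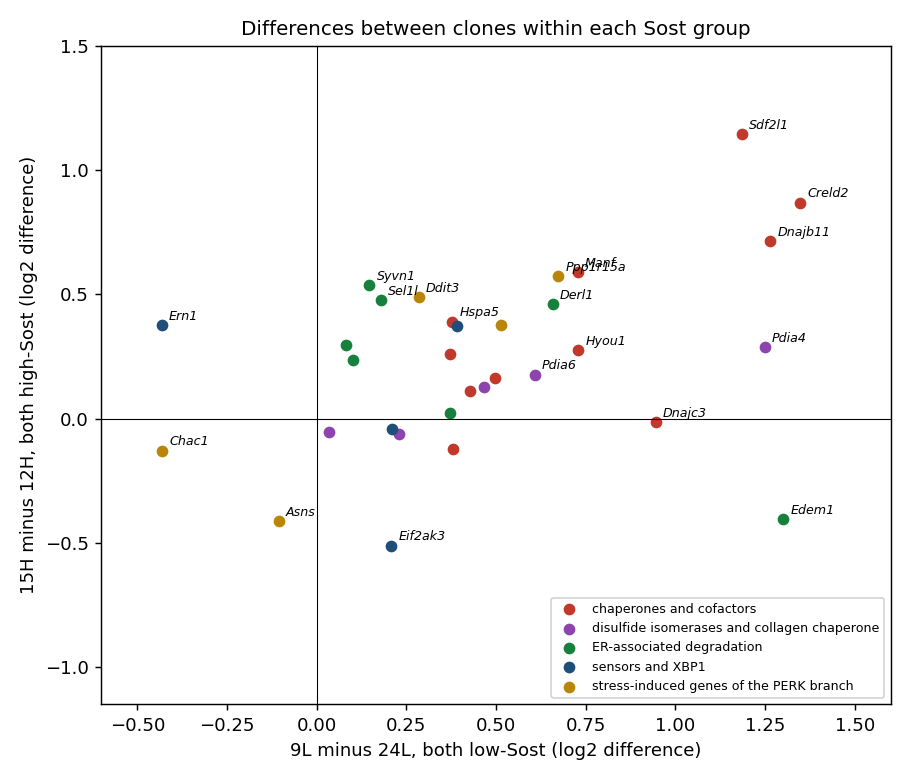
For each of the 32 genes, the difference between the low-Sost clones 9L and 24L (log2, horizontal axis) against that between the high-Sost clones 15H and 12H (log2, vertical axis), coloured by role; each point rests on 4 arrays. Most genes lie to the upper right, led by Sdf2l1, Creld2 and Dnajb11, while Chac1 and Asns lie in the lower left.

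The design compares high-Sost with low-Sost clones. With the adjusted p of limma held under 0.05, 0 of the 32 genes passed, as did 0 of all 23185 genes (0.0%). The lowest limma adjusted p was 0.737 among the 32 and 0.0856 over all genes. At an unadjusted p under 0.05 there was 1 gene of the 32, Eif2ak3 (unadjusted p = 0.04999), against 5.78% of all genes (3.07% higher and 2.71% lower in the high-Sost clones). An unmoderated equal-variance test gave 0 of the 32 by either measure. In 30 of the 32 genes the clones of the groups overlapped. The 2 others were Eif2ak3, higher, and Chac1, lower in the high-Sost clones, which is 6.25% against 16.0% of all genes (8.26% higher and 7.75% lower) and 24.4% of those above the median level, so separation between the Sost groups was not more frequent here than among all genes. The share 2-fold or more apart without overlap was 0 of 32, against 1.85% of all genes. An exact permutation test of 2 clones against 3 cannot give a p under 0.1. The median difference was 0.13 over the 32 genes and 0.00 over all genes, with 21 genes above and 11 below 0.

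**Figure D4:**
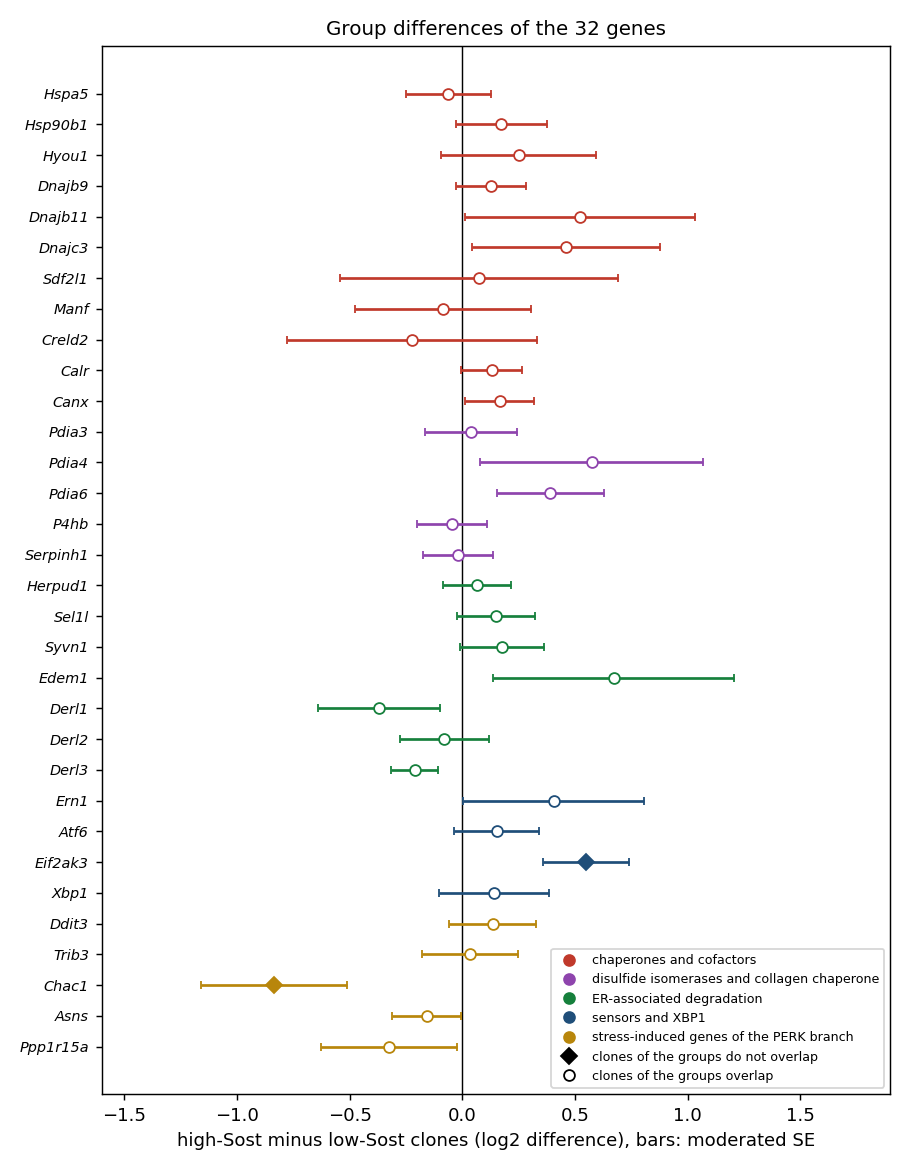
Difference of high-Sost minus low-Sost clones (log2, horizontal axis) for the 32 genes with the moderated SE as bars; filled diamonds mark genes whose 2 high-Sost and 3 low-Sost clones do not overlap. Only Eif2ak3 (0.55) and Chac1 (-0.84) are filled, and the widest bars belong to Sdf2l1, Creld2, Edem1 and Dnajb11.

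The largest positive differences were those of Edem1 (0.67, SE 0.54), Pdia4 (0.57, SE 0.49), Eif2ak3, Dnajb11 (0.52, SE 0.51) and Dnajc3 (0.46, SE 0.42), and the largest negative ones after Chac1 those of Derl1 (-0.37, SE 0.27) and Ppp1r15a (-0.33, SE 0.30). Except in Eif2ak3 and Chac1, these differences were under 1.5 times their SE. Clone 9L bears on this comparison. Without it 13 of the 32 genes were higher and 1, Chac1, was lower with no overlap (43.8%, against 26.5% of all genes in that fit), among them Hsp90b1, Dnajc3, Pdia4, Pdia6 and Edem1. These 5 genes and Chac1 had an unadjusted p under 0.05 in limma's fit without 9L (7.17% of all genes did), with adjusted p from 0.474 to 0.621. Clone 9L, a low-Sost clone, was already seen to be highest for 19 of the 32, and leaving it out lowers the low-Sost mean of those genes by construction. The fit without 9L is therefore not read as a Sost difference. In limma's fit without 4L, 1 of the 32, Serpinh1, had an unadjusted p under 0.05 (5.84% of all genes), and without 24L 0 did (5.49%). Without 15H, which leaves 12H alone, 2 genes were higher and 8 lower with no overlap (31.2%, against 46.1% of all genes), and the median difference was -0.02. Without 4L the count was 7 (21.9%, against 23.1% of all genes), without 24L it was 4 (12.5%, against 23.6%) and without 12H 11 (34.4%, against 37.2%).

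Other genes of the same pathways, 83 of 89 listed being measured, also had 0 passing limma's test in either direction. At an unadjusted p under 0.05 there were 3 higher and 7 lower, against 3.07% and 2.71% of all genes. Without overlap 10 were higher and 11 lower (25.3% of the 83), against 16.0% of all genes (8.26% higher and 7.75% lower). Among genes above the median level the share was 24.4%, close to that of the 83. Among 34 other folding and glycan genes, whose mean deviation was also lowest in 4L (-0.21) and highest in 9L (0.17), 2 were higher and 3 lower without overlap, and among 14 other degradation genes 3 were higher and 0 lower. Of 12 other sensors and transducers 4 were higher and 1 lower. Creb3l1 (OASIS), an ATF6-like ER membrane factor of bone-forming cells that acts on the Col1a1 gene, read 7.72 in 4L, 8.65 in 9L, 9.39 in 24L, 10.51 in 12H and 9.87 in 15H (difference 1.61, SE 0.60). Its relative Creb3l2 differed by 0.58 (SE 0.31), and Mbtps1, the site-1 protease that cleaves ATF6 and these factors, by 0.51 (SE 0.15). The 1 lower was Creb3, chosen for mention after its values were seen, which differed by -0.50 (SE 0.15). The limma adjusted p was 0.737 for each of these genes, Creb3 included.

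Of 23 other targets of ATF4 and CHOP, a list that also holds Atf4 itself, 7 were lower and 1, Bbc3, was higher without overlap. That is 34.8%, against 16.0% of all genes (8.26% higher and 7.75% lower) and 24.4% of those above the median level. Bbc3 lay between 4.24 and 4.71, near the median of 4.18, with 12H at 4.49 and both 4L and 24L at 4.46. Cth, which makes cysteine, read 8.54, 7.91 and 7.68 in 4L, 9L and 24L and 6.57 and 6.66 in 12H and 15H (difference -1.43, SE 0.30, limma adjusted p = 0.681). Ddit4, induced through ATF4, differed by -0.89 (SE 0.20, limma adjusted p = 0.734). Fgf21, another ATF4 target, read 5.58, 5.28 and 5.16 in 4L, 9L and 24L and 3.35 and 3.48 in 12H and 15H (limma adjusted p = 0.465), where the high-Sost values lie under the median of 4.18 over all named genes and no fold is given. Atf4 itself, chosen for mention after its values were seen, read 10.07, 10.22 and 9.73 in the low-Sost clones and 9.71 and 9.76 in the high-Sost clones, with 24L between 12H and 15H. As for Chac1, 4L was the highest clone for 12 of these 23 genes (52.2%). Among all genes with 1 highest clone its share was 23.0%, and 26.1% among those above the median level.

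The labelled cell type was checked on fixed markers. Dmp1 and Phex, osteocyte genes, ran to 7.45 and 6.99 in high-Sost clones and lay between 2.08 and 3.17 in low-Sost ones. Pdpn, a podoplanin gene of early osteocytes, went the other way, with 8.97 to 9.20 in low-Sost clones and 8.35 and 8.06 in 12H and 15H. Mepe and Fgf23 stayed between 2.79 and 3.29 in all clones. Of 17 markers of cartilage, fat, skeletal muscle, blood and endothelium, 11 lay under the median of all named genes in every clone. The others were Sox9 (7.02 to 7.95), Cd68 (5.27 to 6.97), Actn3 (4.35 to 6.44), Col2a1 (4.95 to 5.43), Myog (4.65 to 4.79) and Plin1 (4.08 to 4.19). Clone 4L, low for the chaperones, also read 2.68 for Sp7 and 2.24 for Ibsp, osteoblast genes. They stood at 7.05 or more and 8.35 or more in the other 4 clones, including 24L, which was equally low for the chaperones. Alpl read 6.21 in 4L and 10.355 or more in the others. Bglap, of the same marker list, was instead lowest in 24L, with 3.45 there, 3.74 in 4L, 4.18 in 9L, 6.03 in 12H and 5.62 in 15H. The part of these osteoblast gene differences in the chaperone levels was not tested.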

How the data were processed

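The deposited table holds RMA log2 expression for 25206 probe sets on 5 arrays, without pooling. RMA, affy 1.36.1 and R 2.15.1 are named in the submitters' processing notes, with no role or order. No source used here names the chip definition, any filter or the build. Array medians lay between 4.13 and 4.16. Symbols came from the platform annotation and were brought up to date by Entrez number through RefSeq (GRCm38.p6). All 23185 named genes were tested and 2021 unnamed probe sets were left out.

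The 2 high-Sost and 3 low-Sost clones were compared with a group term in limma 3.58.1 under R 4.3.3 (lmFit, then eBayes with no trend), two-sided, with 3 residual and 0.70 prior degrees of freedom. All p-values were adjusted by Benjamini-Hochberg across the 23185 genes and called under 0.05. With 1 array per clone, p-values measure the spread between clones, culture included. The fit was tested on simulated data. The genes and lists were chosen with earlier results of these data known. Of the other pathway genes, up to 3 per direction were named by smallest p among those without overlap and 0.5 or more apart. Creb3, Atf4 and Bbc3 were named outside this rule. Of these lists 6 genes, and 1 marker gene, are not analysed here. Promoter windows came from RefSeq, 250 bases before to 50 after the start. Alternatives were the dimmest 30% of genes left out, 2 rescalings, 4 variance models, other thresholds and each clone left out. Figures were drawn with matplotlib 3.10.9.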

Additional observations from a re-analysis of the deposited data

How the results depend on the processing

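Under the settings that keep all 5 clones, 2 of 224 values of the 32 genes turned sign, both with quantile normalization again (Pdia3 to -0.0072 and Serpinh1 to 0.0030), and no value of the 32 passed an adjusted p of 0.05 in any setting (lowest 0.186, without 15H). The count of all genes passing was 0 in the main setting, 2 with arrays shifted to 1 median (Megf10 and Spns2), 1 by the unmoderated test, 3 at an adjusted p under 0.1 and 1340 at an unadjusted p under 0.05. With arrays shifted to 1 median, by at most 0.0168, Derl3 joined Eif2ak3 and Chac1 without overlap. With a clone left out, which makes separation easier, the count of the 32 without overlap ran from 4 to 14 and their median difference from -0.02 to 0.22, and 28 of 160 values turned sign, while 15 genes kept theirs in every setting. Without 1 clone, Hspa5 ran from -0.26 to 0.13, Dnajb9 from -0.0026 to 0.26, Sdf2l1 from -0.50 to 0.65, Manf from -0.38 to 0.21, Creld2 from -0.66 to 0.21, Pdia3 from -0.068 to 0.21, P4hb from -0.16 to 0.070, Serpinh1 from -0.15 to 0.055, Herpud1 from -0.083 to 0.21, Sel1l from -0.089 to 0.39, Syvn1 from -0.092 to 0.45, Derl2 from -0.21 to 0.079, Atf6 from -0.034 to 0.34, Xbp1 from -0.059 to 0.29, Ddit3 from -0.11 to 0.38, Trib3 from -0.15 to 0.22 and Asns from -0.36 to 0.048. The cause was not tested. Without 12H or 15H the lone high-Sost clone is assumed to vary like the others. With 5 arrays, a p that misses the threshold does not show that a gene is alike in both groups.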
